A study of Mus musculus with 36 samples.

Results

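The expression of 10 genes that mark macrophages and monocytes was followed in mouse tibia, namely *Spi1*, *Cd68*, *Adgre1*, *Mrc1*, *Cd163*, *Cd14*, *Lyz2*, *C1qa*, *C1qb* and *C1qc*. They were chosen by symbol, each symbol had 1 row in the table, and the 10 are part of 56246 genes measured and of 15902 tested. Bulk RNA was sequenced from 36 tibiae of mice aged 6 months, stripped of epiphyses and marrow so that mostly cortical bone remained. The study asked how bone of a mouse model of Hutchinson-Gilford progeria differed from wild-type bone, and how it changed after base editing. The 12 wild-type (WT) mice were not treated. The 12 saline-treated and the 12 ABE-treated mice carried the genotype LMNAG608G/G608G, called LMNA G/G here, and received a retro-orbital injection at P14, day 14 of life. Each group held 6 males and 6 females. The LMNA G/G mice are double-copy for a human *LMNA* transgene with the progeria mutation, made from a bacterial artificial chromosome, and their own *Lmna* gene remains. ABE, an adenine base editor delivered by AAV9, edits only some of the cells, so an ABE-treated tibia may hold edited and unedited cells.

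Macrophages and monocytes arise from the same blood progenitors under the transcription factor PU.1 and the growth factor receptor CSF1R, and osteoclasts, the cells that resorb bone, come from that lineage too. Resident macrophages of bone clear dead cells, take up haemoglobin, recycle iron and line the bone surface. The 10 genes cover these roles. *Spi1* encodes PU.1. *Adgre1* encodes the surface protein F4/80, *Cd68* a lysosomal protein that is also abundant in osteoclasts, *Mrc1* the mannose receptor CD206, and *Cd163* the receptor for haemoglobin bound to haptoglobin. *Cd14* encodes a co-receptor for bacterial lipopolysaccharide (LPS), *Lyz2* a lysozyme that neutrophils also make, and *C1qa*, *C1qb* and *C1qc* the 3 chains of C1q, the recognition molecule of the classical complement pathway.

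The C1q genes lie side by side on the minus strand of chromosome 4 (GRCm38): *C1qb* at chr4:136880129-136886187, *C1qc* at chr4:136889804-136893065 and *C1qa* at chr4:136895917-136898803. RefSeq promoters (GRCm38.p6, from 250 bases before to 50 after the start) were matched for 6 of the 10 genes, namely *Mrc1*, *C1qb*, *C1qc*, *Cd163*, *Lyz2* and *Cd68*. Below are those of *C1qb* and *C1qc*, neighbours on chromosome 4, and of *Cd68* and *Cd163*, which moved in opposite directions in saline-treated bone. They are chr4:136886151-136886450 (minus strand), chr4:136892865-136893164 (minus), chr11:69666121-69666420 (minus) and chr6:124304401-124304700 (plus). Capitals mark matches, on either strand, to the core that PU.1 recognises (GAGGAA), to a C/EBP motif (TTGCNNAA) and to an AP-1 motif (TGANTCA).
C1qb: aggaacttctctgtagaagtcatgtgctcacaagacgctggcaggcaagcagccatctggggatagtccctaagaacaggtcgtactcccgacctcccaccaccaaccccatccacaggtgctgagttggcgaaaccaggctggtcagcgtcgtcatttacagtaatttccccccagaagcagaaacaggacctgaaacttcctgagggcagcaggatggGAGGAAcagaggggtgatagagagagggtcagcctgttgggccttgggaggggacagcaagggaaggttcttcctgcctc
C1qc: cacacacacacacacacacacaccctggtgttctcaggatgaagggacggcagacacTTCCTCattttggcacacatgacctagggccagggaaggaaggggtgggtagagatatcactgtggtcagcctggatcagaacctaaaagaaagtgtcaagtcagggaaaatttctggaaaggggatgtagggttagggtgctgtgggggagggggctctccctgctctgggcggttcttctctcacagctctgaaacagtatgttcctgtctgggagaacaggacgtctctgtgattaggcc
Cd68: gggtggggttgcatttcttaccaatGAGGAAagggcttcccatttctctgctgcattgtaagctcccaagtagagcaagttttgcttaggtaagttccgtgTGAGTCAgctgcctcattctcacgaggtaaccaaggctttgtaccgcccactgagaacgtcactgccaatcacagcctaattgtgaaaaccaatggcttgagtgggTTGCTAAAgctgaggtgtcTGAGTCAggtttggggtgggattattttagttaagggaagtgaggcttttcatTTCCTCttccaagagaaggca
Cd163: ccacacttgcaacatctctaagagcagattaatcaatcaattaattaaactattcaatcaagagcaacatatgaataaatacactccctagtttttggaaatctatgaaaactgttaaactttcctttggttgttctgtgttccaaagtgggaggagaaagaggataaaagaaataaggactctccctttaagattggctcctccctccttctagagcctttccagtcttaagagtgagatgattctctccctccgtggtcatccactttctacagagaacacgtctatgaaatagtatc
The *Cd68* window held 2 PU.1 cores, 1 C/EBP match and 2 AP-1 matches, none of them overlapping. The *C1qb* and *C1qc* windows held 1 PU.1 core each, the *Mrc1* window held 3, and those of *Cd163* and *Lyz2* held 0 matches to any of these motifs. Of 32851 mouse promoters of the same length, 28.3% held the PU.1 core, 10.8% the C/EBP motif and 7.81% the AP-1 motif. These shares are for at least 1 match to a single motif. The counts describe these windows, and whether they set a gene apart was not tested.

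Libraries held from 48064068 to 116206662 reads on genes. Levels are given as scaled TPM, the deposited TPM (reads corrected for gene length and library total) divided by a median ratio factor per library. Group differences are log2 fold changes of scaled TPM + 0.5 from limma with sex as a covariate, with Benjamini-Hochberg adjusted p (called under 0.05), and they understate changes of genes with low levels. Among the 15902 genes tested, 27.7% were called higher and 24.6% lower in saline-treated than in WT bone. For ABE-treated against WT bone these shares were 35.0% and 35.2%, and for ABE-treated against saline-treated bone 23.2% and 25.1%. Without the scaling the split was uneven: TPM as deposited gave 1038 genes higher and 3704 lower in saline-treated against WT bone, 1470 and 9458 in ABE-treated against WT bone, and 531 and 6574 in ABE-treated against saline-treated bone, with medians over all genes of -0.13, -0.42 and -0.27. TPM rescaled without the very short genes gave 1877 higher and 6791 lower, 3593 and 7852, and 3462 and 3400. The comparisons share groups and are not independent. The labels name no batch. WT mice have a series of ID numbers of their own, so a batch, if there was one, and genotype cannot be told apart. The paper calls the mice of these groups littermates. ABE replicate 1, a female, stood apart with a scale factor of 0.219, against at least 0.610 in the other libraries. Osteocyte markers, which define cortical bone, were lowest in WT bone, with a summed level of 11.2 to 51.2 scaled TPM in WT, 172 to 493 in saline-treated and 176 to 349 in ABE-treated bone.

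In saline-treated against WT bone, 2 of the 10 genes were called and they moved in opposite directions: *Cd68* rose and *Cd163* fell. The other 8 were not called, and the median log2 fold change of the 10 was -0.026, beside 0.019 over all genes tested. In ABE-treated against WT bone 7 of 10 fell and 0 rose, with a median of -0.63 beside -0.018 over all genes. In ABE-treated against saline-treated bone 8 of 10 fell and 0 rose, with a median of -0.61 beside -0.016. In bulk RNA, fewer cells of a type and less RNA per cell cannot be told apart.

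**Figure D1:**
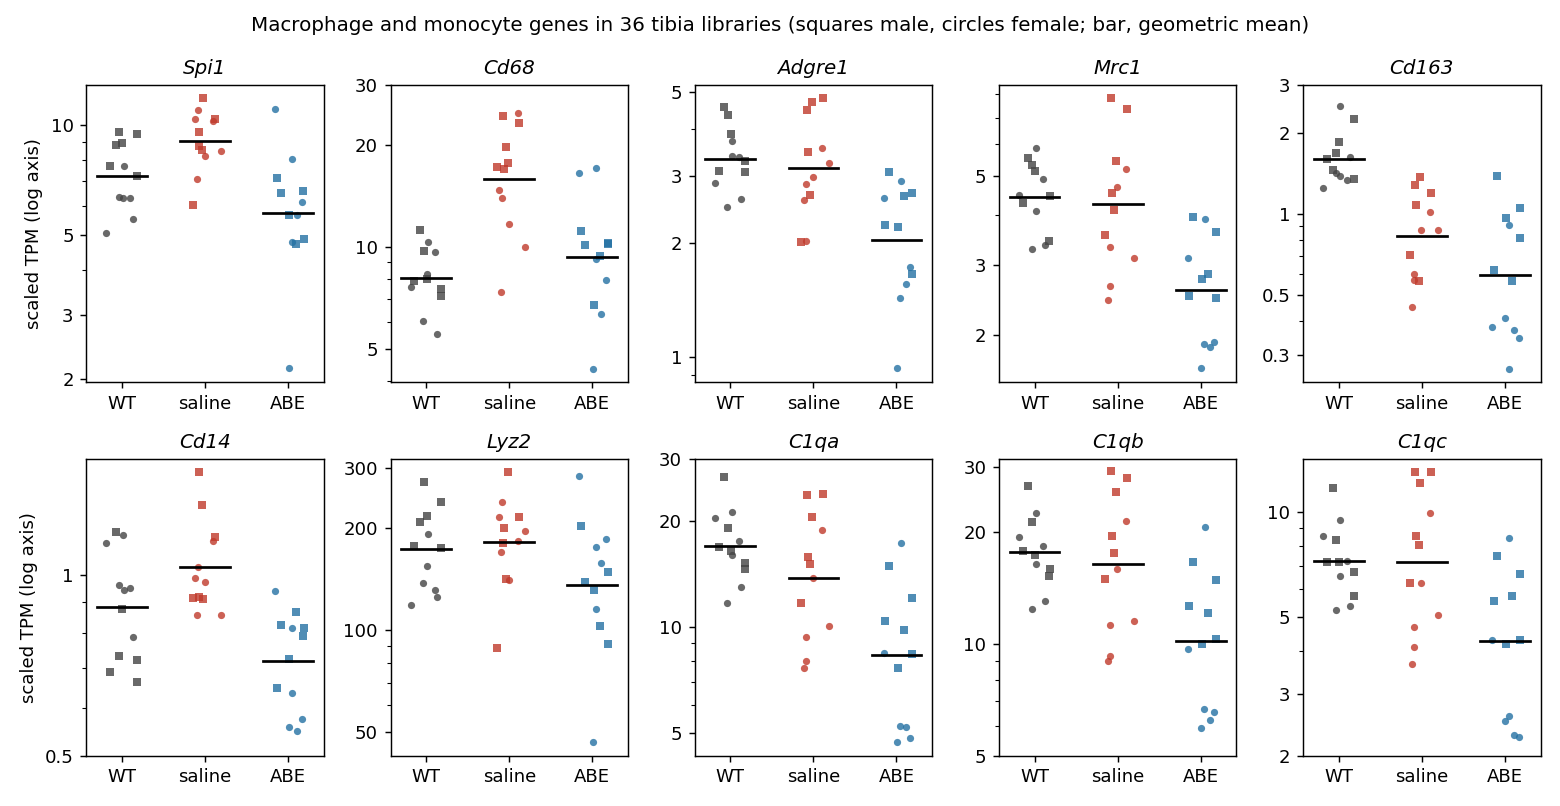
Level of each gene in every library, in scaled TPM on a log axis, for WT, saline-treated and ABE-treated bone (12 libraries each); squares are males, circles females and bars geometric means. *Cd68* stood higher in saline-treated libraries (7.37 to 24.7) than in most WT libraries (5.53 to 11.2), *Cd163* was lower in both LMNA G/G groups, and the C1q genes were lower in most ABE-treated libraries.

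*Cd68* had the largest rise. Its level lay between 5.53 and 11.2 scaled TPM in WT bone (median 7.98), between 7.37 and 24.7 in saline-treated bone (median 17.0) and between 4.35 and 17.0 in ABE-treated bone (median 9.75). Of the 12 saline-treated libraries, 10 lay above every WT library, and the ABE-treated libraries overlapped both other groups. The log2 fold change was 0.93 ± 0.18 (SE) in saline-treated against WT bone (adjusted p = 5.3e-05) and -0.73 ± 0.18 in ABE-treated against saline-treated bone (adjusted p = 0.0019). Against WT, ABE-treated bone differed by 0.19 ± 0.18 (adjusted p = 0.33), which was not called, and by -0.33 with TPM as deposited. In the 6 females of each group alone the rise in saline-treated bone was 0.69 (adjusted p = 0.13).

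The osteoclast markers include the proteases that dissolve bone matrix. Their summed level over 10 genes lay between 144 and 266 scaled TPM in WT bone (median 168), between 152 and 629 in saline-treated bone (median 417) and between 123 and 510 in ABE-treated bone (median 223), and 0 of the 10 markers were at 0 in a whole group. Of the 9 tested, 8 were higher and 1 lower in saline-treated than in WT bone, and 8 were lower in ABE-treated than in saline-treated bone. In ABE-treated against WT bone 5 were higher and 1 lower, while *Cd68* was not called there. The gene that was lower in each comparison, named here after its values were seen, was *Itgb3*, an integrin subunit that platelets also carry (-0.64 ± 0.19 in saline-treated against WT bone, adjusted p = 0.0056). Their part in the *Cd68* values was not tested.

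*Spi1* was called only between the LMNA G/G groups, whose ranges overlapped. It lay between 5.04 and 9.57 scaled TPM in WT bone (median 7.47), between 6.03 and 11.8 in saline-treated bone (median 9.20) and between 2.14 and 11.1 in ABE-treated bone (median 5.90). The lowest value, 2.14, belonged to ABE replicate 1, and 6 of 12 ABE-treated libraries lay below every saline-treated library. The log2 fold change of ABE-treated against saline-treated bone was -0.61 ± 0.15 (adjusted p = 0.0020). The differences from WT, 0.30 ± 0.15 in saline-treated (adjusted p = 0.085) and -0.31 ± 0.15 in ABE-treated bone (adjusted p = 0.062), had opposite signs and were not called. The first passed without ABE replicate 1 (adjusted p = 0.034) or saline replicate 11 (adjusted p = 0.040), and the second when 1 of 4 libraries was left out, WT replicates 3 and 6 and ABE replicates 2 and 3 (adjusted p from 0.0086 to 0.049). Of the 15 alternative settings, 4 called *Spi1* higher in saline-treated than in WT bone, among them the marker covariates described further on (0.26, adjusted p = 0.024), and 5 called it lower in ABE-treated than in WT bone, among them males alone (-0.52, adjusted p = 0.0033) and TPM as deposited (-0.81, adjusted p = 0.0022).

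*Adgre1* and *Mrc1* were called lower in ABE-treated bone in both comparisons and were not called between saline-treated and WT bone. *Adgre1* lay between 2.50 and 4.57 scaled TPM in WT (median 3.33), between 2.02 and 4.82 in saline-treated (median 3.12) and between 0.935 and 3.08 in ABE-treated bone (median 2.22). *Mrc1* lay between 3.30 and 5.89 (median 4.48), between 2.45 and 7.82 (median 4.33) and between 1.65 and 3.96 (median 2.63) in the same order. All 12 ABE-treated libraries were below the WT median for both genes, although the groups overlapped. Against WT the log2 fold change in ABE-treated bone was -0.59 ± 0.13 for *Adgre1* (adjusted p = 0.00011) and -0.67 ± 0.14 for *Mrc1* (adjusted p = 7.0e-05). Against saline-treated bone it was -0.52 ± 0.13 (adjusted p = 0.0019) and -0.61 ± 0.14 (adjusted p = 0.0012). In saline-treated against WT bone the differences of -0.064 and -0.052 were within their standard errors.

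*Cd163*, the haemoglobin scavenger receptor, was low in both LMNA G/G groups. It lay between 1.24 and 2.50 scaled TPM in WT bone (median 1.53), between 0.452 and 1.37 in saline-treated bone (median 0.872) and between 0.267 and 1.38 in ABE-treated bone (median 0.592). Of 12 libraries, 10 saline-treated and 11 ABE-treated ones lay below every WT library. The log2 fold change against WT was -0.64 ± 0.12 in saline-treated (adjusted p = 3.5e-05) and -0.90 ± 0.12 in ABE-treated bone (adjusted p = 8.7e-08). Between the LMNA G/G groups it was -0.26 ± 0.12 (adjusted p = 0.073), which was not called and passed when 1 of 5 libraries was left out, saline replicates 1, 11 and 12 and ABE replicates 3 and 10 (adjusted p from 0.026 to 0.049). On recovered reads with limma-voom, where 0.5 is added to reads and not to TPM, the differences from WT were -0.94 and -1.36.

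*Cd14* had the lowest and *Lyz2* the highest mean level over the 36 libraries. *Cd14* lay between 0.664 and 1.18 scaled TPM in WT (median 0.912), between 0.856 and 1.48 in saline-treated (median 0.980) and between 0.550 and 0.940 in ABE-treated bone (median 0.758). Of the 12 ABE-treated libraries, 10 lay below every saline-treated library. *Cd14* was called lower in ABE-treated bone both against saline-treated (-0.33 ± 0.07, adjusted p = 0.0011) and against WT bone (-0.18 ± 0.07, adjusted p = 0.022). *Lyz2* lay between 118 and 274 scaled TPM in WT (median 176), between 88.8 and 292 in saline-treated (median 190) and between 46.7 and 285 in ABE-treated bone (median 143). These ranges overlapped widely, and *Lyz2* was not called in any of the comparisons (log2 fold changes 0.067, -0.34 and -0.41, each ± 0.21, for saline-treated against WT, ABE-treated against WT and ABE-treated against saline-treated bone). Without ABE replicate 2, a female, *Lyz2* passed in both comparisons of ABE-treated bone (-0.45, adjusted p = 0.039, and -0.52, adjusted p = 0.025), and without saline replicate 11 it passed against saline-treated bone (-0.51, adjusted p = 0.027). Of the 15 alternative settings, 4 called *Lyz2* lower in ABE-treated than in WT bone, among them males alone (-0.69, adjusted p = 0.020) and TPM as deposited (-0.92, adjusted p = 0.0080). *Lyz2* has a close paralogue, *Lyz1*, and how reads matching both were counted is not given in the sources used here.

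The neutrophil markers, granule proteins and receptors that mature granulocytes make, had a summed level of 780 to 2547 scaled TPM in WT bone (median 1542), 1050 to 3776 in saline-treated bone (median 2629) and 358 to 4044 in ABE-treated bone (median 1636). None of the 12 genes was at 0 in a whole group. Of the 12, 9 were lower and 0 higher in ABE-treated than in saline-treated bone. Their part in the *Lyz2*, *Spi1* and *Cd14* values was not tested by itself. A fit with these markers among the marker covariates is described further on.

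The C1q genes fell together in ABE-treated bone. *C1qa* lay between 11.7 and 26.6 scaled TPM in WT (median 16.7), between 7.63 and 23.8 in saline-treated (median 14.4) and between 4.71 and 17.3 in ABE-treated bone (median 8.42). *C1qb* lay between 12.4 and 26.7 (median 17.6), between 8.98 and 29.1 (median 16.7) and between 5.94 and 20.7 (median 10.2), and *C1qc* between 5.25 and 11.7 (median 7.17), between 3.67 and 13.04 (median 7.16) and between 2.27 and 8.45 (median 4.29). Of the 12 ABE-treated libraries, 9, 8 and 7 lay below every WT library for *C1qa*, *C1qb* and *C1qc*. The log2 fold changes against WT were -0.98 ± 0.18 (adjusted p = 1.5e-05), -0.76 ± 0.17 (adjusted p = 0.00025) and -0.69 ± 0.18 (adjusted p = 0.0011). Against saline-treated bone they were -0.70, -0.66 and -0.69, with adjusted p between 0.0031 and 0.0033. In saline-treated against WT bone the values were -0.29, -0.096 and -0.00085, and none was called.

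**Figure D2:**
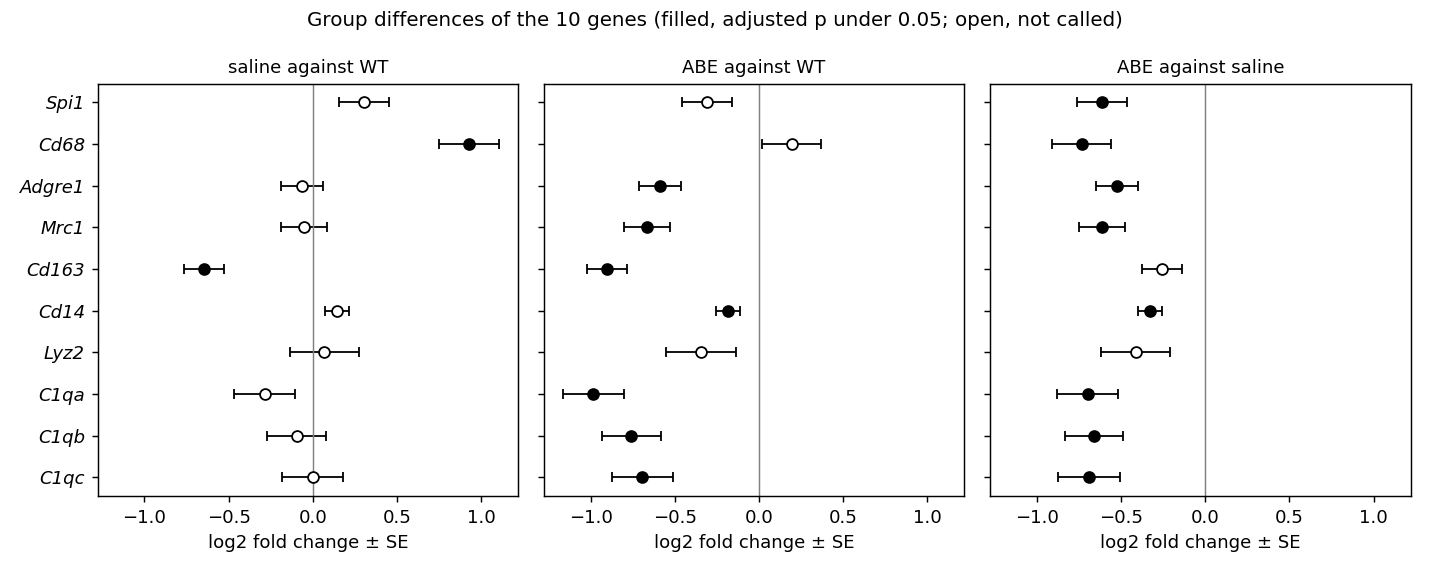
Log2 fold change of each gene ± SE in the 3 comparisons, from limma with sex as a covariate (12 libraries a group); filled points had an adjusted p under 0.05. *Cd68* and *Cd163* were filled on opposite sides of 0 in saline-treated against WT bone, and all filled points of the ABE-treated comparisons lay below 0.

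Markers of red cells and platelet precursors were lower and muscle markers higher in ABE-treated bone. The summed level of the erythroid markers had medians of 127 scaled TPM in WT (63.0 to 184), 150 in saline-treated (54.1 to 193) and 71.7 in ABE-treated bone (14.004 to 133), and of the 7 tested, 6 were lower in ABE-treated bone in both of its comparisons. Megakaryocyte markers had medians of 167 (113 to 237), 87.9 (36.9 to 173) and 44.8 (5.29 to 117), and all 4 tested were lower in each of the 3 comparisons. B cell markers had medians of 47.8 (33.0 to 75.5), 23.1 (17.6 to 49.9) and 27.6 (12.4 to 54.7), with 9 of 10 lower in ABE-treated than in WT and 1 of 10 lower than in saline-treated bone. Skeletal muscle markers had medians of 976 (199 to 2926), 2029 (308 to 7424) and 6038 (1041 to 12500), with 10 of 10 higher in ABE-treated than in WT and 9 of 10 higher than in saline-treated bone. No listed marker was at 0 in a whole group. With the mean log2 levels of the neutrophil, B cell, erythroid and muscle markers as covariates, the 7 calls of ABE-treated against WT bone were lost (log2 fold changes from -0.40 to -0.064, adjusted p from 0.47 to 0.89) and *Lyz2* was called lower (-0.25, adjusted p = 0.033). Calls over all genes in this comparison fell as well, from 11156 to 2204 of 15902. Standard errors of the 7 genes that lost their calls rose, from 0.18 to 0.33 for *C1qa* and from 0.14 to 0.24 for *Mrc1*. That of *Spi1* fell from 0.15 to 0.084. For *Lyz2* it fell from 0.21 to 0.078, while its log2 fold change went from -0.34 to -0.25. The covariates themselves differed between the groups, so this fit cannot separate cell mix from group. In ABE-treated against saline-treated bone with the covariates, calls over all genes fell from 7674 to 984. There *Spi1*, *Cd68* and *Cd14* stayed called, and *Adgre1*, *Mrc1* and the C1q genes had adjusted p from 0.054 to 0.14. The log2 fold change of *Adgre1* there was -0.31, and those of *Mrc1*, *C1qa*, *C1qb* and *C1qc* were -0.51, -0.71, -0.67 and -0.71, beside -0.52, -0.61, -0.70, -0.66 and -0.69 for the 5 genes without the covariates. In saline-treated against WT bone *Cd68* stayed at 1.15 (adjusted p = 0.0070), while *Cd163* went from -0.64 to -0.020 (adjusted p = 0.95), *Spi1* was called higher (0.26, adjusted p = 0.024) and *Lyz2* lower (-0.38, adjusted p = 0.00077).

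Ratios of 2 genes within a library do not depend on how libraries are scaled, and 21 were tested (7 ratios in 3 comparisons, 2-sided permutation within sex with 100000 resamples, Benjamini-Hochberg over the 21). Of these, 8 passed the threshold. How often ratios of other gene pairs differ, or do not overlap, between these groups was not tested. *Cd68/Adgre1* lay between 2.07 and 2.87 in WT (geometric mean 2.42), between 3.07 and 8.49 in saline-treated (4.996) and between 3.03 and 6.43 in ABE-treated bone (4.56). Neither LMNA G/G group overlapped WT, and the log2 differences were 1.05 and 0.92, each with a permutation p of 1e-05, the smallest the resamples can give (adjusted 5.2e-05). Between the LMNA G/G groups the difference was -0.13 (permutation, adjusted p = 0.53). Relative to the F4/80 gene, *Cd68* was higher in both LMNA G/G groups than in WT bone.

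*Cd163/Adgre1* lay between 0.319 and 0.730 in WT (geometric mean 0.479), between 0.174 and 0.347 in saline-treated (0.262) and between 0.144 and 0.635 in ABE-treated bone (0.292). It was lower than in WT by -0.87 in saline-treated (permutation, adjusted p = 5.2e-05) and by -0.71 in ABE-treated bone (permutation, adjusted p = 0.0098) on the log2 scale. In the males alone the second was -0.34 (exact permutation, adjusted p = 0.37). *Mrc1/Adgre1* stayed between 0.946 and 1.77 in all libraries, with geometric means of 1.33, 1.34 and 1.28 and no difference past the threshold (adjusted p from 0.53 to 0.89). *Cd14/Adgre1* was higher in ABE-treated than in WT bone by 0.42 (permutation, adjusted p = 0.0067), though 0.24 in the females alone (exact permutation, adjusted p = 0.44), and *Lyz2/Adgre1* passed in 0 of the 3 comparisons.

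Within C1q the chains did not keep 1 ratio. *C1qa/C1qc* lay between 2.23 and 2.54 in WT (geometric mean 2.34), between 1.69 and 2.20 in saline-treated (1.92) and between 1.71 and 2.26 in ABE-treated bone (1.95). No saline-treated library overlapped WT, and 11 of 12 ABE-treated libraries lay below every WT library. Whether this is unusual among gene pairs was not tested. The log2 differences from WT were -0.29 (permutation p = 1e-05, adjusted 5.2e-05) and -0.26 (permutation p = 2e-05, adjusted 8.4e-05), and between the LMNA G/G groups 0.027 (permutation, adjusted p = 0.53). Both differences from WT held in females alone (-0.22 and -0.20) and in males alone (-0.36 and -0.33). *C1qb/C1qc* differed less, by -0.094 in saline-treated against WT bone (permutation, adjusted p = 0.019) and by -0.023 in ABE-treated against WT bone (adjusted p = 0.60).

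**Figure D3:**
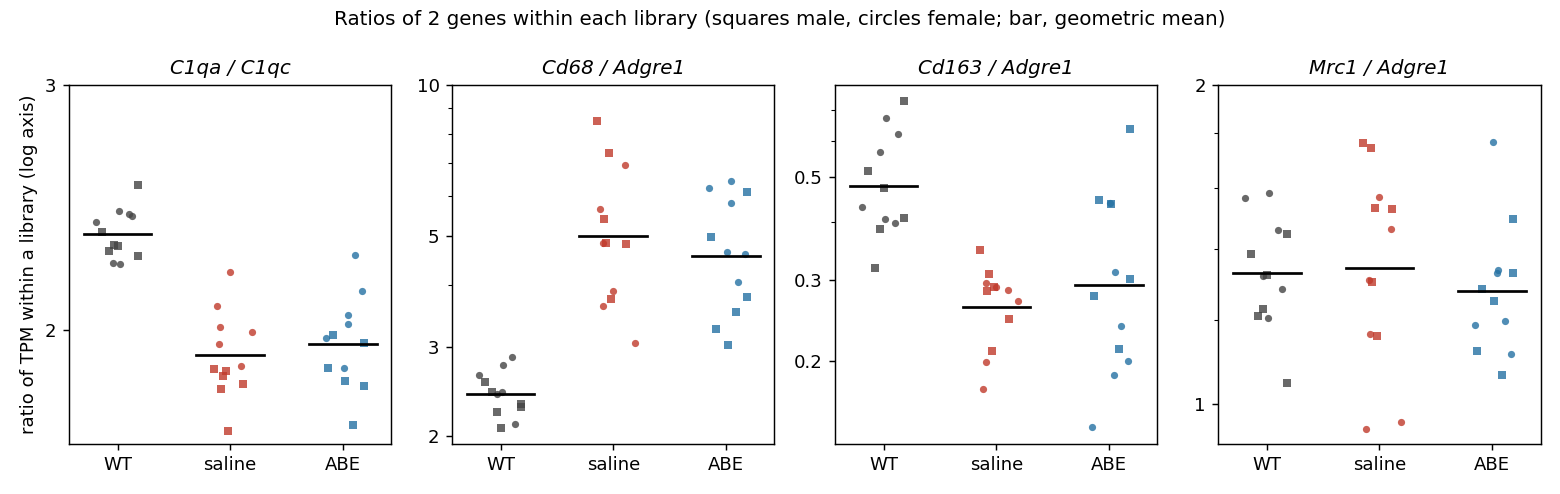
Ratio of 2 genes within each library on a log axis, for WT, saline-treated and ABE-treated bone (12 each); squares are males, circles females and bars geometric means. *C1qa/C1qc* and *Cd163/Adgre1* were lower and *Cd68/Adgre1* higher in both LMNA G/G groups than in WT, and *Mrc1/Adgre1* had geometric means of 1.33, 1.34 and 1.28.

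After the mean of each group and sex was subtracted, the 10 genes varied together from library to library to unequal degrees (36 libraries, 45 pairs, permutation within group and sex, Benjamini-Hochberg over the pairs). By Pearson's r, 34 of 45 pairs passed the threshold. The C1q genes had r from 0.987 to 0.993 with each other (Spearman's rho 0.969 to 0.988), and r from 0.980 to 0.989 without the 2 libraries farthest from the median. *Mrc1* followed them at r from 0.911 to 0.922 (rho 0.907 to 0.929), *Adgre1* at 0.814 to 0.825 and *Cd68* at 0.739 to 0.757.

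*Spi1* and *Lyz2* formed the other close pair, with r = 0.936 and rho = 0.885 (permutation p = 1e-05 for both, adjusted 3.7e-05 and 4.1e-05) and r = 0.879 without the 2 farthest libraries. *Lyz2* and the C1q genes had r from 0.349 to 0.371 (permutation, adjusted p from 0.14 to 0.16), which rose to between 0.662 and 0.716 with TPM as deposited. *Cd163* and *Cd14* had r = 0.020 and rho = -0.019 (permutation, adjusted p = 0.91 and 0.92), and r = 0.407 with TPM as deposited (permutation, adjusted p = 0.026).

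**Figure D4:**
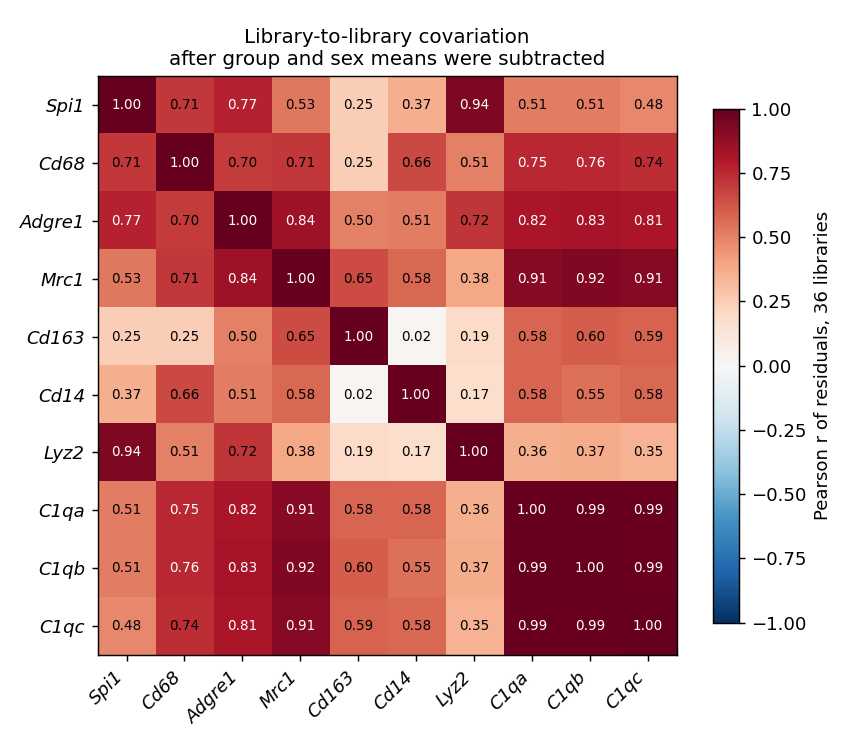
Pearson's r between the 10 genes over 36 libraries after group and sex means were subtracted; each cell gives r for the gene of its row and column. The block of *C1qa*, *C1qb* and *C1qc* had r of at least 0.987, *Spi1* and *Lyz2* 0.94, and *Cd163* and *Cd14* 0.02.

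Of 3907 genes with a mean of at least 5 scaled TPM, those whose residuals followed each of the 10 most closely differed by gene. Nearest to *Spi1* were *Cotl1* (r = 0.988), *Rac2* and *Cyba*, the last a subunit of the phagocyte oxidase. Nearest to *Lyz2* were *Pglyrp1* (r = 0.979), *Ly6a2* and *Cybb*, another oxidase subunit. *Cd68* was nearest to the lysosomal genes *Ctsz* (r = 0.965) and *Grn*. *Adgre1* was nearest to *Sirpa* (r = 0.897), which encodes the receptor of the signal that spares healthy cells from being engulfed, *Cfp* and *Mpeg1*. Beside *C1qb* and *C1qa*, *Mrc1* was nearest to *Vcam1* (r = 0.920), and after each other the C1q genes were nearest to *Apoe* (r from 0.884 to 0.890). *Cd163* had weaker neighbours, *Fcna* (r = 0.764), the haem-degrading enzyme *Hmox1* (r = 0.717) and *Slc1a5* (r = 0.703), and those of *Cd14* were *Tns3* (r = 0.829), *Tmem176b* and *Itm2c*. These r are descriptive, over the same 36 libraries.

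Other genes of resident macrophages and phagocytic receptors moved with the 10 in ABE-treated bone. Of 24 listed, 17 were tested, and 13 were lower and 0 higher in ABE-treated than in saline-treated bone (median log2 fold change -0.50), 10 lower and 1 higher in ABE-treated than in WT bone (-0.37), and 4 lower and 4 higher in saline-treated than in WT bone (0.061). The others were below the limit for testing. Mean levels in WT, saline-treated and ABE-treated bone were 0.846, 0.078 and 0.066 scaled TPM for *Vsig4*. They were 0.373, 0.082 and 0.064 for *Timd4*, 0.959, 0.200 and 0.290 for *Lyve1*, and 0.461, 0.139 and 0.170 for *Folr2*. For *Marco* they were 0.29, 0.031 and 0.036, for *Trem2* 0.605, 0.470 and 0.304, and for *Msr1* 0.243, 0.304 and 0.185. All but *Msr1* had a lower mean in saline-treated than in WT bone. The adaptor *Tyrobp*, which carries the signals of several myeloid receptors, had mean levels of 45.3, 62.2 and 40.8 scaled TPM in WT, saline-treated and ABE-treated bone. It rose by 0.46 ± 0.17 on the log2 scale in saline-treated against WT bone (adjusted p = 0.023) and fell by 0.67 ± 0.17 in ABE-treated against saline-treated bone (adjusted p = 0.0025). *Cd5l*, a protein that macrophages secrete, fell against WT in both LMNA G/G groups, with log2 fold changes of -0.93 ± 0.26 (adjusted p = 0.0036) and -1.59 ± 0.26 (adjusted p = 2.9e-06). The fatty acid transporter *Cd36*, which adipocytes, muscle and endothelium also make, was the 1 gene of the list that was higher in ABE-treated than in WT bone (0.64 ± 0.13, adjusted p = 5.6e-05).

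**Figure D5:**
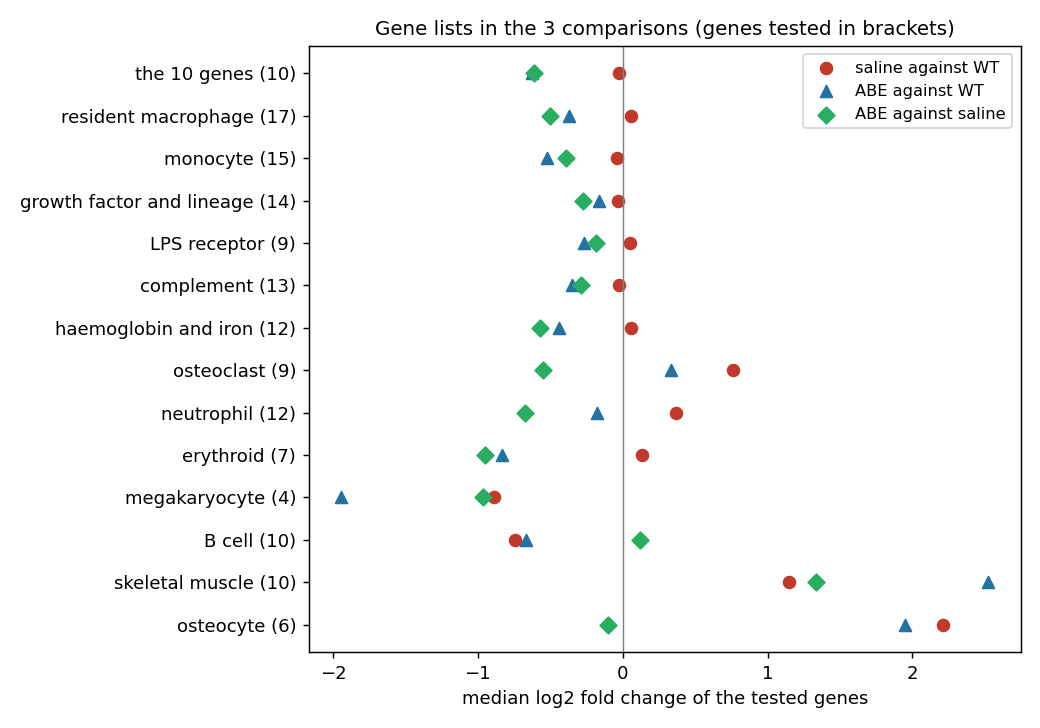
Median log2 fold change of the tested genes of each list in the 3 comparisons (number of genes tested in brackets). The macrophage, monocyte, complement and iron lists had medians below 0 in both ABE-treated comparisons and near 0 in saline-treated against WT bone, and the osteoclast median was 0.76 in saline-treated against WT bone. The medians near 0 held calls in both directions, such as 6 monocyte genes lower and 4 higher. Genes below the limit for testing are left out. All such resident macrophage genes but *Msr1* had lower means in saline-treated than in WT bone.

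Of 16 listed monocyte genes 15 were tested, and 11 were lower and 1 higher in ABE-treated than in saline-treated bone (median -0.39), 10 lower and 2 higher in ABE-treated than in WT bone (-0.52), and 6 lower and 4 higher in saline-treated than in WT bone (-0.041). *Ccr2*, the chemokine receptor that brings monocytes out of marrow, was lower than in WT in saline-treated (-0.36 ± 0.14, adjusted p = 0.027) and ABE-treated bone (-0.66 ± 0.14, adjusted p = 7.4e-05). *Cx3cr1*, the fractalkine receptor, was lower by -0.45 ± 0.10 (adjusted p = 0.00024) and -0.57 ± 0.10 (adjusted p = 5.0e-06). *Ly6c2*, the marker of inflammatory monocytes, was called lower in ABE-treated against saline-treated bone (-0.65 ± 0.24, adjusted p = 0.025), and not in saline-treated (0.15 ± 0.24, adjusted p = 0.61) or ABE-treated against WT bone (-0.49 ± 0.24, adjusted p = 0.064). Higher in saline-treated than in WT bone were *Ace* (1.10 ± 0.11, adjusted p = 5.6e-10) and *Nr4a1* (0.96 ± 0.26, adjusted p = 0.0023). So were *Chil3* (0.83 ± 0.26, adjusted p = 0.0078) and *Fcgr4* (0.50 ± 0.17, adjusted p = 0.015). The gene that rose in both ABE-treated comparisons was *Nr4a1*, an early response gene that many cell types make, with mean levels of 2.22 in WT, 5.21 in saline-treated and 12.6 scaled TPM in ABE-treated bone, and log2 fold changes of 2.14 ± 0.26 against WT (adjusted p = 1.6e-08) and 1.19 ± 0.26 against saline-treated bone (adjusted p = 0.00098).

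Of the 14 growth factor and lineage transcription factor genes, all tested, 7 were lower and 2 higher in ABE-treated than in saline-treated bone, 7 lower and 5 higher in ABE-treated than in WT bone, and 3 lower and 5 higher in saline-treated than in WT bone. Over all genes tested, 25.1%, 35.2% and 24.6% were lower and 23.2%, 35.0% and 27.7% higher in the same order. The same shares stand beside the counts of the other lists, and no list was tested as a set. *Csf1*, the ligand, which bone cells make, was higher than in WT in saline-treated (0.56 ± 0.13, adjusted p = 0.00045) and ABE-treated bone (0.28 ± 0.13, adjusted p = 0.046), and was not called in ABE-treated against saline-treated bone (-0.27 ± 0.13, adjusted p = 0.072). *Csf1r*, its receptor on macrophages, did not pass in saline-treated against WT bone (0.079 ± 0.14, adjusted p = 0.65) and was lower in ABE-treated bone against WT (-0.36 ± 0.14, adjusted p = 0.018) and against saline-treated bone (-0.44 ± 0.14, adjusted p = 0.0087). *Irf8*, a transcription factor of monocytes and dendritic cells, fell against WT by 1.09 ± 0.13 in saline-treated (adjusted p = 3.0e-08) and by 1.37 ± 0.13 in ABE-treated bone (adjusted p = 2.6e-10). *Cebpb*, a transcription factor that bone and fat cells also make, rose by 1.15 ± 0.14 (adjusted p = 3.8e-08) and 1.23 ± 0.14 (adjusted p = 6.5e-09).

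Of 13 listed genes of haemoglobin and iron handling, 12 were tested. Of these, 10 were lower and 0 higher in ABE-treated than in saline-treated bone, 8 lower and 2 higher in ABE-treated than in WT bone, and 2 lower and 3 higher in saline-treated than in WT bone. *Hmox1*, the haem oxygenase, had mean levels of 16.5, 20.3 and 8.78 scaled TPM in WT, saline-treated and ABE-treated bone, and its log2 fold change in ABE-treated against saline-treated bone was -1.26 ± 0.24 (adjusted p = 0.00042). The iron exporter *Slc40a1* was lower in ABE-treated bone against saline-treated (-0.65 ± 0.14, adjusted p = 0.0012) and WT bone (-0.78 ± 0.14, adjusted p = 1.9e-05). In saline-treated against WT bone neither passed (0.28 and -0.13, adjusted p = 0.32 and 0.47), while *Cd163* was called lower there, and the difference between these genes was not tested.

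Of 18 listed complement genes beside C1q, 13 were tested, and 6 were lower and 1 higher in ABE-treated than in saline-treated bone, 7 lower and 2 higher in ABE-treated than in WT bone, and 2 lower and 1 higher in saline-treated than in WT bone. The proteases that join C1q in the C1 complex, *C1ra* and *C1s1*, are made mainly by other cells. *C1ra* did not pass in any comparison (0.19, 0.19 and 0.0040), and *C1s1* rose in ABE-treated bone against WT (0.47 ± 0.12, adjusted p = 0.0012) and saline-treated bone (0.59 ± 0.12, adjusted p = 0.00085). *Cfd*, the adipsin of fat cells, fell most in ABE-treated bone (-1.84 ± 0.43 against WT, adjusted p = 0.00034), and the adipocyte markers had a summed median of 19.7 scaled TPM in WT, 21.05 in saline-treated and 13.3 in ABE-treated bone.

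Of 11 listed genes of the LPS receptor, 9 were tested, and 3 were lower and 0 higher in ABE-treated than in saline-treated bone, 6 lower and 1 higher in ABE-treated than in WT bone, and 3 lower and 2 higher in saline-treated than in WT bone. Over all genes tested, 25.1%, 35.2% and 24.6% were lower and 23.2%, 35.0% and 27.7% higher in the same order. *Tlr4*, the receptor that CD14 serves, was higher in saline-treated than in WT bone (0.18 ± 0.05, adjusted p = 0.0023) and did not pass in the other comparisons (0.072 and -0.11, adjusted p = 0.19 and 0.060). *Ly96*, its partner MD-2, was below the limit for testing, with means of 0.508, 0.525 and 0.392 scaled TPM. *Cd180*, a relative of *Tlr4* found on B cells as well, fell against WT by 0.63 ± 0.09 in saline-treated (adjusted p = 1.7e-06) and by 0.81 ± 0.09 in ABE-treated bone (adjusted p = 1.1e-08).

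Group differences were also compared between the sexes. By limma's interaction of group and sex, 0 of the 10 genes passed in any comparison, beside 1.03% of all genes in saline-treated against WT bone, 3.68% in ABE-treated against WT bone and 0.0566% in ABE-treated against saline-treated bone. At an unadjusted p under 0.05 the counts were 1, 2 and 0 of the 10, beside 3634, 3184 and 2508 of the 15902 genes tested, and limma-voom also gave 0 after adjustment. The smallest unadjusted p was that of *Cd14* in ABE-treated against WT bone (0.022, adjusted p = 0.16), where the log2 fold change was -0.026 in males and -0.34 in females. *Lyz2* had -0.69 in males and -0.0013 in females in the same comparison (adjusted p = 0.35), and without ABE replicate 1, a female, its log2 fold change was -0.69 in males and 0.32 in females (interaction, adjusted p = 0.049). In females alone, 2 of the 8 calls of ABE-treated against saline-treated bone remained, those of *Adgre1* and *Cd14*. The other 6 had log2 fold changes from -0.64 (*Spi1*) to -0.46 (*Cd68*) with adjusted p from 0.064 to 0.27. In males alone 7 of the 8 remained, and *Adgre1* was at -0.49 (adjusted p = 0.063).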

How the data were processed

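The authors prepared stranded poly(A) libraries, aligned paired reads to GRCm38 with STAR and counted them on GENCODE M24 genes with QoRTs. They deposited TPM for 56246 genes in 36 libraries, each summing to 1000000, in a table that also holds gene length and GC content, and how TPM were computed is not given in the sources used here. Within each library 100% of the deposited TPM were whole reads (tolerance 0.1) divided by gene length less 218 bp, so reads were recovered for depth and for limma-voom. This division gave 7335 very short genes between 84.7% and 96.6% of the TPM of each library, and values were divided by each library's median ratio to the geometric means of the 23632 genes above 0 in every library. The study's own tests fitted a count model with sex as a covariate, and limma on log2(scaled TPM + 0.5) with sex took its place because the unit is TPM. Genes with a mean of at least 0.5 scaled TPM were tested and called at a Benjamini-Hochberg adjusted p under 0.05. Groups came from the genotype and treatment labels, and 0 pairs of libraries were duplicates. ABE replicates 2 and 11 and saline replicate 9 have WT within their titles, and for them too the labels were followed. Labels do not give litters, and p-values measure the spread between mice.

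Named genes were the 10, and of each macrophage, monocyte, LPS receptor, complement, growth factor and iron list the 2 with the highest mean and the called genes with the largest rise or fall per comparison, beside a fixed set of receptors and ligands, of which those with the clearest place in the pathway are given here. The members and lists were chosen with earlier results of these data known. Gene coordinates are those of GENCODE vM21, whose identifiers matched for all 10 genes. Alternatives were other pseudocounts, filters and scalings, limma-voom, array weights, other covariates and samples, and each library left out. Tests were checked on simulated data. R 4.3.3, limma 3.58.1, Python 3.11.15, numpy 2.4.6, pandas 2.3.3 and matplotlib 3.10.9 were used. The human transgene and the editor were not analysed here. Of the genes nearest to *Cd68*, 1 is not reported here.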

Additional observations from a re-analysis of the deposited data

How the results depend on the processing

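The 10 genes were called in 2, 7 and 8 cases in saline-treated against WT, ABE-treated against WT and ABE-treated against saline-treated bone. A filter at 5 scaled TPM, which removes *Adgre1*, *Mrc1*, *Cd163* and *Cd14*, left 1, 3 and 5. Array weights gave 4 in the first comparison, females alone 1 in the first and 2 in the third, and the 4 marker means as covariates 3 in the first (*Spi1*, *Cd68* and *Lyz2*, with *Cd163* lost), 1 in the second and 3 in the third. Over all genes, saline-treated against WT bone gave 8315 calls, and 13170 without a filter, 2043 with the filter at 5, 4742 with TPM as deposited, 3096 with the marker covariates and 3273 in females alone. ABE-treated against WT bone gave 11156, and 19138 without a filter, 2614 with the filter at 5 and 2204 with the covariates. ABE-treated against saline-treated bone gave 7674, and 1775 with the filter at 5, 984 with the covariates, 4730 in females alone and 3210 in males alone. The filters change how many genes are tested and the fits of 1 sex use fewer samples; for the other settings the cause was not tested.

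For the difference between the sexes, saline-treated against WT bone gave 164 genes, and 274 and 99 with pseudocounts of 0.1 and 1, 0 with TPM as deposited (1467 at an unadjusted p under 0.05), 424 with limma-voom and 560 without ABE replicate 1. ABE-treated against WT bone gave 585, and 388 with TPM as deposited and 1272 without ABE replicate 1, where 1 of the 10 genes, *Lyz2*, passed. ABE-treated against saline-treated bone gave 9, and 2 with TPM as deposited.

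These signs turned in saline-treated against WT bone, all from values that were not called. With array weights they became 0.048 (*Adgre1*), 0.040 (*Mrc1*), 0.029 (*C1qb*) and 0.14 (*C1qc*). With the covariates they became 0.13 (*Adgre1*), 0.44 (*Mrc1*), -0.38 (*Lyz2*, adjusted p = 0.00077 by limma), 0.31 (*C1qa*), 0.47 (*C1qb*) and 0.56 (*C1qc*). In males alone they became 0.16 (*Mrc1*), -0.28 (*Lyz2*), 0.0069 (*C1qa*), 0.22 (*C1qb*) and 0.35 (*C1qc*), and in females alone -0.014 (*Cd14*). *Lyz2* became -0.13 with TPM as deposited and -0.14 with TPM rescaled without the very short genes, and *C1qc* 0.0042 with a pseudocount of 1. With 1 library left out *Adgre1* ranged from -0.10 to 0.0011 and *C1qc* from -0.067 to 0.059. In ABE-treated against WT bone *Cd68* became -0.33 with TPM as deposited and -0.014 with TPM so rescaled, and in ABE-treated against saline-treated bone *Lyz2* became 0.13 with the covariates. Ratio differences that turned were, in females alone, 0.070 (*C1qb/C1qc*, ABE-treated against WT), 0.22 (*Cd68/Adgre1*), 0.11 (*Mrc1/Adgre1*) and -0.064 (*Cd163/Adgre1*) between the LMNA G/G groups and -0.20 (*Mrc1/Adgre1*, saline-treated against WT), and, in males alone, -0.22 and -0.068 (*Lyz2/Adgre1*, saline-treated and ABE-treated against WT). The r of *Cd163* and *Cd14* became -0.049 without the 2 farthest libraries. The cause was not tested. No call of the 10 genes was lost when 1 of the 36 libraries was left out, and these were gained (limma). In saline-treated against WT bone *Spi1* passed without ABE replicate 1 or saline replicate 11 (adjusted p = 0.034 and 0.040) and *Cd14* without WT replicate 10 or 12 (0.048 and 0.047). In ABE-treated against WT bone *Spi1* passed without WT replicate 3 or 6 or ABE replicate 2 or 3 (adjusted p from 0.0086 to 0.049), and *Lyz2* without ABE replicate 2 (0.039). In ABE-treated against saline-treated bone *Lyz2* passed without ABE replicate 2 or saline replicate 11 (adjusted p = 0.025 and 0.027), and *Cd163* without saline replicate 1, 11 or 12 or ABE replicate 3 or 10 (0.026 to 0.049).

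No paired analysis was possible because the labels carry no numbers that pair mice across groups. Values under 1 scaled TPM of *Cd14* and *Cd163* rest on as few as 149 and 217 reads in a library. *Adgre1* was also under 1 in ABE replicate 1 (0.935, on 524 reads).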

Other observations

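Calls in marker lists of further cell types (limma, adjusted p under 0.05) stand beside the shares over all genes tested. Those were 27.7% higher and 24.6% lower in saline-treated against WT bone, and 35.0% and 35.2% in ABE-treated against WT bone. In ABE-treated against saline-treated bone they were 23.2% and 25.1%. Of 4 dendritic cell markers tested, 3 were lower in saline-treated and 3 in ABE-treated than in WT bone, and their summed level had medians of 5.52 scaled TPM in WT, 2.76 in saline-treated and 2.36 in ABE-treated bone. Of 3 T and NK cell markers tested, 0 passed in saline-treated against WT bone and 3 were lower in each comparison of ABE-treated bone. Of 5 cartilage markers tested, 4 were lower in each LMNA G/G group than in WT bone, with summed medians of 135, 40.1 and 49.4 scaled TPM in WT, saline-treated and ABE-treated bone. Of 6 endothelial markers tested, 3 were higher in saline-treated than in WT bone, and 5 were higher and 1 lower in ABE-treated than in WT bone. Of 8 osteoblast markers, 3 were higher and 0 lower than in WT bone in each LMNA G/G group.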
